A study of Mus musculus with 6 samples.

Results

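Inhibitory receptors are surface proteins that restrain T cells once these have been activated through the T cell receptor. The genes followed here, chosen by symbol, were the receptors Ctla4, Tigit, Pdcd1, Lag3, Havcr2, Btla, Cd160 and Ceacam1 and the ligands Cd274 and Pdcd1lg2. All 10 were measured, each by 1 probe set that the platform annotation assigns to that symbol alone, among 22180 genes tested. The values are log2 levels from Affymetrix whole-transcript arrays of mouse splenic CD4+ T cells. The cells were isolated with magnetic beads, cultured with 10% fetal bovine serum and stimulated for 12 hours through CD3 and CD28 by antibodies at 1 µg/ml. All 3 groups thus received the same stimulus, and no unstimulated cells were analysed here. Cells in ConCM received control conditioned medium. Those in PlGFCM received medium conditioned by HEK-293 clones, a human embryonic kidney line, that overexpress the PlGF2 form of placental growth factor. Those in IL6_ConCM received control conditioned medium with IL-6 at 20 ng/ml. Each group held 2 replicate arrays, 6 in all. Not given in the sources used here are the concentration of PlGF and the strain, sex and age of the mice, and whatever else the HEK-293 clones secrete was in the medium too. In bulk RNA, fewer cells that express a gene and less RNA of it per cell cannot be told apart.

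Stimulation through the T cell receptor induces most of these receptors, which then act as feedback. CTLA-4 competes with the costimulatory receptor CD28 for CD80 and CD86, PD-1 (Pdcd1) recruits phosphatases when it binds PD-L1 (Cd274) or PD-L2 (Pdcd1lg2), and TIGIT competes with CD226 for the poliovirus receptor and nectins. LAG-3 binds MHC class II, TIM-3 (Havcr2) binds galectin-9, and BTLA and CD160 share the ligand HVEM (Tnfrsf14). CEACAM1 is an adhesion molecule that binds itself on neighbouring cells, and its long cytoplasmic form carries inhibitory tyrosine motifs.

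Of the 10 genes, Ceacam1 rose in PlGFCM against ConCM, and no gene of the 10 changed in IL6_ConCM against ConCM or in PlGFCM against IL6_ConCM. The words rose, fell and changed are kept for an adjusted p from limma below 0.05, with the Benjamini-Hochberg method applied to all 22180 genes. That threshold was passed by 0.433% of all genes in PlGFCM against ConCM (0.352% rose, 0.0812% fell), by 0.113% in IL6_ConCM against ConCM (0.0857% rose, 0.0271% fell) and by 0.0316% in PlGFCM against IL6_ConCM, all of which rose. Tigit was 0.57 higher in PlGFCM and 0.77 higher in IL6_ConCM than in ConCM on the log2 scale, and neither difference passed. For Pdcd1, Lag3, Havcr2, Cd160 and Pdcd1lg2 the ConCM replicates differed from each other by more than any 2 group means did. An array from PlGFCM, replicate 2, stood apart in a sex-linked transcript: Xist, which female cells transcribe from the inactive X chromosome, was at a log2 level of 8.38 there and between 3.58 and 3.95 on the other 5 arrays. The differences of PlGFCM from ConCM are therefore given for all 10 genes with and without this array.

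Ceacam1 has a close paralog in the mouse, Ceacam2, on the same chromosome. The stretches before their start sites were taken from RefSeq on build GRCm38.p6. They are printed to show which longer runs of bases occur in both, and they do not bear on probe binding. Both lie on the minus strand and are written 5′ to 3′, and the capitals mark runs of at least 12 bases that occur in both. The Ceacam1 stretch is chr7:25477648-25477875 and the Ceacam2 stretch chr7:25540005-25540254.
Ceacam1: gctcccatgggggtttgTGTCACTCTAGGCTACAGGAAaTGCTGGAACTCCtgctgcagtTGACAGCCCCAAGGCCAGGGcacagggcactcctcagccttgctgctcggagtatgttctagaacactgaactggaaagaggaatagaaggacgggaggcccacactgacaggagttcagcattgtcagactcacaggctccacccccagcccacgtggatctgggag
Ceacam2: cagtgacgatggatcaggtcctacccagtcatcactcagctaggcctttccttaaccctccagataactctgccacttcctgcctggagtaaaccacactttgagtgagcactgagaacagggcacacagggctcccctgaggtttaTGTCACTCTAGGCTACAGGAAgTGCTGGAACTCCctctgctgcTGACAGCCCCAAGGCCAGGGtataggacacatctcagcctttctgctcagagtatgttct
The 3 shared runs cover 53 bases, 23.2% of the 228 bases shown for Ceacam1 and 21.2% of the 250 shown for Ceacam2. The longest run is 21 bases. Shorter matches were not counted and the stretches were not aligned, so these shares do not measure how similar the stretches are.

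Ceacam1 had log2 levels of 5.74 and 6.02 with ConCM, 7.21 and 6.58 with PlGFCM, and 6.32 and 6.28 with IL6_ConCM. Both PlGFCM arrays lay above both IL6_ConCM arrays, and these above both ConCM arrays. The means were 5.88 ± 0.20 (SD, n = 2), 6.89 ± 0.44 and 6.30 ± 0.03. The difference of PlGFCM from ConCM was 1.01 ± 0.18 (SE) on the log2 scale, or 2.02-fold (adjusted p = 0.0391, 95% interval 0.62 to 1.41). The gap between the PlGFCM replicates, 0.63, was the widest of the 10 genes in that group, and replicate 1 was the higher. Without PlGFCM replicate 2, the array with Xist, the difference was 1.33 and still passed (adjusted p = 0.0360). Without PlGFCM replicate 1 it was 0.70 and did not pass (adjusted p = 0.220), nor did it pass without ConCM replicate 1 (0.87, adjusted p = 0.253) or ConCM replicate 2 (1.15, adjusted p = 0.119). It also lost its call when the fit ignored the dependence of the spread on signal level (adjusted p = 0.308) or took the replicate number as a block (adjusted p = 0.0822). Ceacam1 passed in 12 of 17 alternative settings, several of which refit the same levels with another prior, weight or filter. That count therefore does not measure how stable the call is. The difference was positive in 17 of 17. Since both PlGFCM arrays lay above both ConCM arrays, leaving an array out could not reverse this sign.

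**Figure D1:**
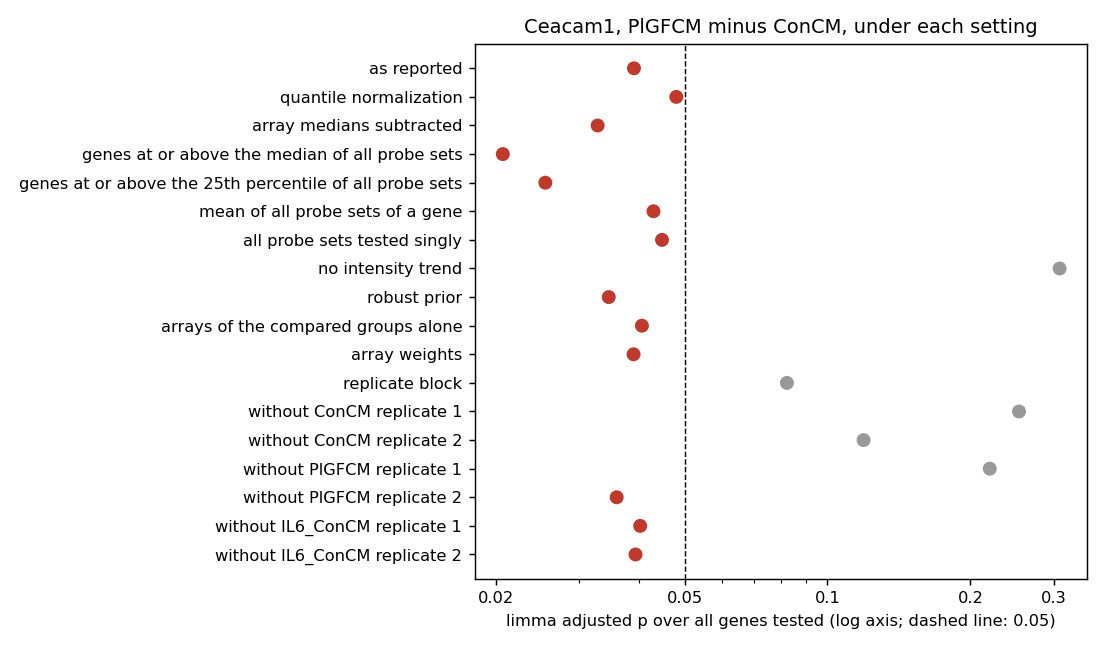
Adjusted p of Ceacam1 for PlGFCM minus ConCM (x axis, log scale) as reported and under each of 17 alternative settings (y axis); red points lie under the dashed threshold of 0.05 and grey points above it. The 5 grey points are the fit with no intensity trend, the replicate block and the fits that leave out either ConCM array or PlGFCM replicate 1.

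With IL-6 in place of PlGF, Ceacam1 differed from ConCM by 0.42 on the log2 scale (95% interval 0.02 to 0.82, adjusted p = 0.852). PlGFCM exceeded IL6_ConCM by 0.59 (95% interval 0.19 to 0.99, adjusted p = 0.779). That Ceacam1 difference was 0.90 without PlGFCM replicate 2 and 0.28 without PlGFCM replicate 1. Neither passed over all genes, so the level in IL6_ConCM was not shown to differ from its neighbours in the order, although the arrays did not overlap. The comparisons against ConCM share the same control arrays.

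Ceacam2 had log2 levels of 5.72 and 5.71 with ConCM, 5.70 and 5.85 with PlGFCM, and 5.77 and 5.96 with IL6_ConCM. PlGFCM and ConCM overlapped, with a difference of 0.06 (95% interval -0.21 to 0.34, adjusted p = 0.938). Of the 14 other Ceacam genes measured, Ceacam2 among them, none passed in any of the 3 comparisons. Among them, at an unadjusted p under 0.05, limma gave 0 genes in either comparison against ConCM. Of all genes, 4.19% were higher and 4.54% lower in PlGFCM, and 2.62% and 3% with IL-6. In PlGFCM against IL6_ConCM 2 were lower, Ceacam10 at -0.58 and Ceacam14 at -0.63, beside 1.81% of all genes. The median log2 difference of the 14 genes was 0.02 in PlGFCM against ConCM, beside -0.01 for all genes tested. In that comparison Ceacam10 was at -0.30 (adjusted p = 0.713), Ceacam14 at -0.33 (adjusted p = 0.735) and Ceacam5 at 0.18 (adjusted p = 0.831). Their mean log2 levels with ConCM were 4.56, 4.07 and 2.48, below the median of 5.48 over all probe sets, whereas Ceacam2 lay above it. At such low signal the lack of a call says little. The probe set of Ceacam1 may still bind transcripts of relatives, and its isoforms, which differ in the inhibitory tail, are not resolved by 1 probe set.

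Ceacam1 is also expressed by myeloid cells and B cells, so their markers are given beside it. The summed signal of the 9 myeloid markers, as log2, was 9.54 and 9.59 with ConCM, 9.79 and 9.67 with PlGFCM, and 9.62 and 9.64 with IL6_ConCM. It was thus highest on the PlGFCM arrays and, as for Ceacam1, higher on replicate 1 of these. Such a sum weighs bright genes most. Cd68, the brightest of the 9, was at 8.65 and 8.49 with PlGFCM, with a difference from ConCM of 0.10 (adjusted p = 0.807). With ConCM, the means of Lyz2, Itgam, Mpo, Adgre1 and S100a8 were 4.78, 4.95, 5.25, 5.35 and 3.16. These lie below the median of 5.48 over all probe sets. Of the 9, 5 had a positive and 4 a negative difference in PlGFCM against ConCM, and none passed. Cd14, the receptor for bacterial lipopolysaccharide on monocytes, was at 0.67 (adjusted p = 0.0806), Adgre1 at 0.38 (adjusted p = 0.334) and Lyz2 at 0.31 (adjusted p = 0.631), whereas Itgam was at -0.15, Mpo at -0.05 and Csf1r at -0.04. Cd14 did pass under the filter at the median of all probe sets (adjusted p = 0.0422), with the compared arrays alone (adjusted p = 0.0257) and without either IL6_ConCM array (adjusted p = 0.0263 and 0.0274). For the 7 B cell markers measured, the sum was 9.51 and 9.50 with ConCM. With PlGFCM it was 9.65 and 9.60, and with IL6_ConCM 9.53 and 9.52. In PlGFCM 5 of the 7 lay above ConCM without overlap (17.3% of all genes) and 2 below it (20.9%). Ms4a1, the B cell antigen CD20, fell by 0.84 (adjusted p = 0.0125), but did not pass without an intensity trend (adjusted p = 0.0996). Pax5 was at 0.31 (adjusted p = 0.455) and Cd79b at 0.33 (adjusted p = 0.492). Cd79a, Ebf1 and Blk were at 0.22, 0.21 and 0.19, and Cd22 at -0.02. The fall of Ms4a1 did not pass when any 1 of the ConCM or PlGFCM arrays was left out. Dendritic cell sums ranged from 9.36 to 9.50 over the 6 arrays and those of NK and CD8 T cells from 9.30 to 9.55, and none of these markers passed. The part of other cells in the Ceacam1 difference was not tested. The T cell markers measured, among them Cd3e, Cd3d and Cd3g of the receptor complex at 0.05, 0.12 and 0.06 in PlGFCM against ConCM, had sums of 13.25 to 13.44 and none changed. Cd4 itself lay between 11.13 and 11.40 on every array.

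By a rule set on array profiles alone, the 5 named genes most like Ceacam1 over the 6 arrays were Dll4, Vmn1r257, Fbxw26, Slc7a11 and Ccl5, with Euclidean distances of 0.330 to 0.452 between mean-centred log2 levels. Each of the 5 was highest on PlGFCM replicate 1, as was Ceacam1. The rule picks genes by such likeness, so this shared maximum is no separate result. Dll4, a Notch ligand, had log2 levels of 5.92 and 6.24 with ConCM, 7.22 and 6.69 with PlGFCM, and 6.23 and 6.60 with IL6_ConCM. Ccl5, a chemokine gene, had 8.37 and 8.58 with ConCM, 9.36 and 8.89 with PlGFCM, and 8.48 and 8.73 with IL6_ConCM. Slc7a11, which encodes a cystine transporter, ran from 4.78 on ConCM replicate 1 to 5.92 on PlGFCM replicate 1. Vmn1r257, a vomeronasal receptor of a family of similar sequences, and Fbxw26 did not exceed 3.96 on any array.

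**Figure D2:**
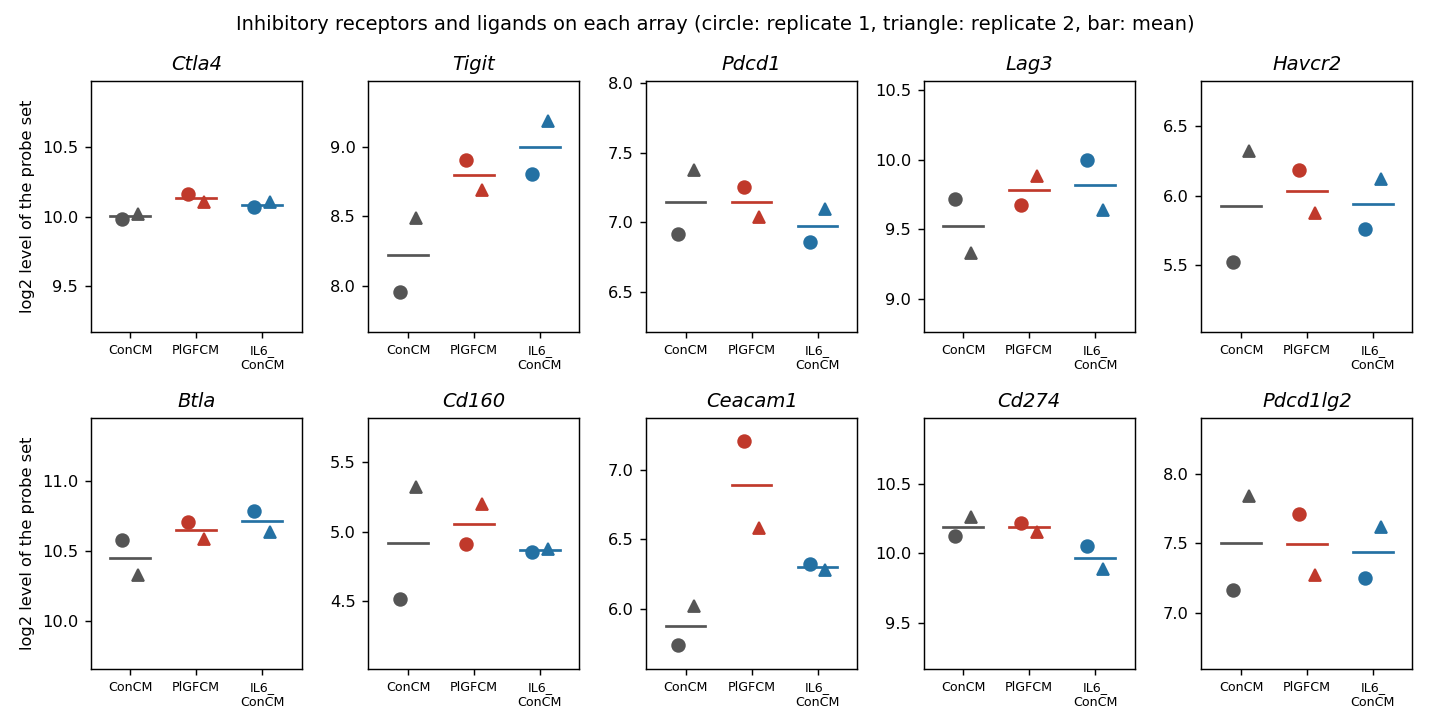
Log2 level of the probe set of each of the 10 genes (y axis, the same span of 1.8 log2 units in each panel) on the 6 arrays by group (x axis), with circles for replicate 1, triangles for replicate 2 and bars for the group means. Ceacam1 and Tigit show both treated groups above ConCM, whereas for Havcr2, Cd160 and Pdcd1lg2 the ConCM replicates span the other arrays.

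Tigit, the receptor for the poliovirus receptor, had log2 levels of 7.96 and 8.49 with ConCM, 8.90 and 8.69 with PlGFCM, and 8.80 and 9.18 with IL6_ConCM. All 4 treated arrays lay above both ConCM arrays. The group means were 8.22 ± 0.37, 8.80 ± 0.15 and 8.99 ± 0.27. With IL-6 the difference was 0.77 ± 0.16 (SE), or 1.71-fold (95% interval 0.41 to 1.13), and it did not pass over all genes (adjusted p = 0.153). In PlGFCM the difference was 0.57 (95% interval 0.21 to 0.93, adjusted p = 0.265), and it was 0.68 without PlGFCM replicate 2. Without ConCM replicate 1 the Tigit difference was 0.31 in PlGFCM and 0.51 with IL-6, and without ConCM replicate 2 it was 0.84 and 1.04. PlGFCM minus IL6_ConCM was -0.20 (95% interval -0.56 to 0.16). In no setting tried did Tigit pass, with adjusted p from 0.103 to 0.832 in PlGFCM and from 0.0580 to 0.770 with IL-6. The lowest of these came without ConCM replicate 2.

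Ctla4, the receptor for CD80 and CD86, had the narrowest range over the 6 arrays. It had log2 levels of 9.99 and 10.02 with ConCM, 10.16 and 10.11 with PlGFCM, and 10.07 and 10.10 with IL6_ConCM. Both treated groups lay above ConCM without overlap, by 0.13 (95% interval -0.01 to 0.27) in PlGFCM and by 0.08 (95% interval -0.06 to 0.23) with IL-6. Neither difference passed (adjusted p = 0.607 and 0.993), and the upper bound in PlGFCM was 0.27 log2 units.

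Btla, a receptor for HVEM, had log2 levels of 10.58 and 10.33 with ConCM, 10.71 and 10.59 with PlGFCM, and 10.79 and 10.64 with IL6_ConCM. ConCM was lower without overlap in both comparisons, although its replicate 1 came close to PlGFCM replicate 2. The differences were 0.20 (95% interval 0.00 to 0.39, adjusted p = 0.559) and 0.26 (95% interval 0.07 to 0.46, adjusted p = 0.671). With 1 array left out, the Btla differences ranged from 0.073 (without ConCM replicate 2) to 0.32 (without ConCM replicate 1) in PlGFCM and from 0.14 to 0.39 with IL-6, by the same arrays. Cd160, the other receptor for HVEM, was at 4.52 and 5.32 with ConCM, 4.91 and 5.20 with PlGFCM, and 4.86 and 4.87 with IL6_ConCM. Here the ConCM replicates enclosed the other 4 arrays. Tnfrsf14, which encodes HVEM, differed by 0.11 in PlGFCM and by 0.01 with IL-6.

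Lag3, the receptor for MHC class II, had log2 levels of 9.72 and 9.33 with ConCM, 9.68 and 9.88 with PlGFCM, and 10.00 and 9.64 with IL6_ConCM. ConCM replicate 2 was lowest and the groups overlapped, with differences of 0.25 (95% interval -0.05 to 0.56) and 0.29 (95% interval -0.01 to 0.59). The Lag3 differences were 0.062 and 0.099 without ConCM replicate 2, and 0.45 and 0.49 without ConCM replicate 1. Havcr2, which encodes TIM-3, was at 5.52 and 6.32 with ConCM, 6.18 and 5.88 with PlGFCM, and 5.76 and 6.12 with IL6_ConCM. ConCM held both its lowest and its highest array, and its differences of 0.11 and 0.01 had intervals from -0.39 to 0.61 and from -0.48 to 0.51.

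Of the PD-1 receptor and its ligands none passed in any comparison. Pdcd1 had log2 levels of 6.92 and 7.37 with ConCM, 7.25 and 7.04 with PlGFCM, and 6.85 and 7.09 with IL6_ConCM. Its groups overlapped, and its difference in PlGFCM was 0.00 (95% interval -0.33 to 0.33). Cd274, the gene of PD-L1, had 10.13 and 10.26 with ConCM, 10.22 and 10.16 with PlGFCM, and 10.05 and 9.89 with IL6_ConCM. With IL-6 both arrays lay below all 4 others. The difference from ConCM was -0.22 (95% interval -0.39 to -0.05, adjusted p = 0.695), and PlGFCM exceeded IL6_ConCM by 0.22 (95% interval 0.05 to 0.39, adjusted p = 0.997), neither of which passed. For PlGFCM against ConCM the difference of Cd274 was -0.01 (95% interval -0.18 to 0.17). Pdcd1lg2, the gene of PD-L2, was at 7.17 and 7.84 with ConCM, 7.71 and 7.28 with PlGFCM, and 7.26 and 7.62 with IL6_ConCM, again with the ConCM replicates enclosing the others.

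**Figure D3:**
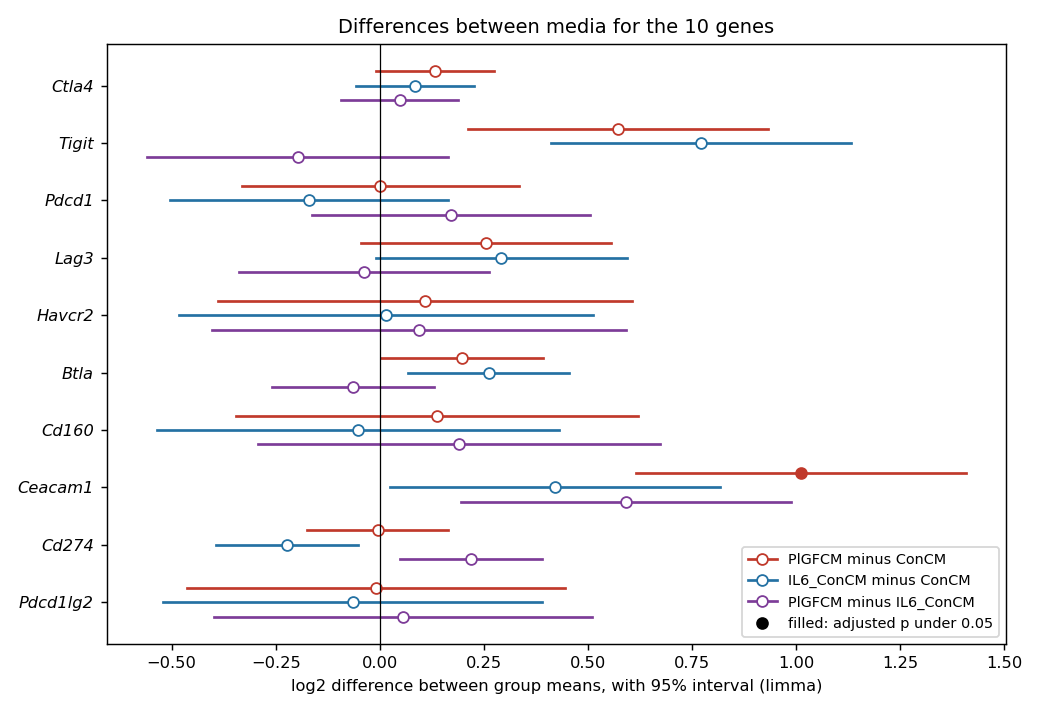
Log2 differences between group means with 95% intervals from limma (x axis) for each of the 10 genes (y axis) in the 3 comparisons, drawn in red, blue and purple; a filled point passed an adjusted p of 0.05. Ceacam1 in PlGFCM minus ConCM, at 1.01, is the filled point, and Tigit is at 0.57 and 0.77 against ConCM.

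Counted over the 10 genes, 8 had a positive and 2 a negative difference in PlGFCM against ConCM, with a median of 0.14 beside -0.01 for all genes tested. With IL-6 the signs were 6 and 4 and the median 0.05, beside -0.01. In PlGFCM against IL6_ConCM they were 7 and 3 with a median of 0.07. Of all 22180 genes, 10291 were positive in PlGFCM and 10406 with IL-6 against ConCM, and 10880 in PlGFCM against IL6_ConCM. The groups did not overlap, with the treated arrays higher, for 4 of 10 genes in PlGFCM (17.3% of all genes) and for none with them lower (20.9%). With IL-6, 4 of 10 were higher without overlap (15.7% of all genes) and 1, Cd274, was lower (18.4%). PlGFCM lay above IL6_ConCM without overlap for 4 of 10, Ctla4, Cd160, Ceacam1 and Cd274 (15.2% of all genes), and below it for none (14.9%). Against ConCM the 4 higher genes were Ctla4, Tigit, Btla and Ceacam1, in comparisons that share the ConCM arrays. An unadjusted p under 0.05 was reached by 3 of the 10 in PlGFCM, all higher (4.19% of all genes, with 4.54% lower), by 3 higher (2.62%) and 1 lower (3%) with IL-6, and by 2 higher (2.56%, with 1.81% lower) in PlGFCM against IL6_ConCM. The members were chosen with earlier results of these data known, and these shares are a description.

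Without PlGFCM replicate 2, the array with Xist, the differences from ConCM were 0.16 for Ctla4, 0.11 for Pdcd1, 0.15 for Lag3, 0.26 for Havcr2, 0.26 for Btla, -0.0046 for Cd160, 0.026 for Cd274 and 0.21 for Pdcd1lg2. Of these 8, Cd160, Cd274 and Pdcd1lg2 changed sign.

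The ConCM replicates differed from each other more for these genes than for the typical gene. Their median absolute gap was 0.42 log2 units over the 10 genes and 0.12 over all genes. In PlGFCM the same medians were 0.21 and 0.13, and in IL6_ConCM 0.20 and 0.12. Replicate 2 was the higher for 8 of the 10 genes in ConCM and for 6 in IL6_ConCM, whereas replicate 1 was the higher for 8 in PlGFCM. These counts were not made over all genes. Replicate 2 minus replicate 1 was 0.53 for Tigit in ConCM, 0.38 in IL6_ConCM and -0.22 in PlGFCM. For Lag3 it was -0.39, -0.36 and 0.20. Its sign in IL6_ConCM matched that in ConCM except for Ceacam1 and Cd274. In PlGFCM the sign was opposite to ConCM except for Btla and Cd160. Whether a property shared by the samples lies behind these gaps was not tested. Havcr2 differed by 0.80 between the ConCM replicates, more than 99.6% of all genes did, Cd160 by 0.80, Pdcd1lg2 by 0.67, Tigit by 0.53 and Pdcd1 by 0.46. ConCM replicate 1 was the lowest array for 6 of the 10 genes and ConCM replicate 2 the highest for 5. With 2 arrays a group, the difference of Havcr2, Cd160 or Pdcd1lg2 from ConCM therefore changed sign when ConCM replicate 1 or 2 was left out.

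Against ConCM, 0.433% of all genes changed in PlGFCM and 0.113% with IL-6, and the lists around the receptors are given beside these shares. None of the 14 binding partners passed in any comparison. At an unadjusted p under 0.05 limma gave 0 higher and 1 lower of them in each comparison against ConCM. The shares of all genes were 4.19% higher and 4.54% lower in PlGFCM, and 2.62% and 3% with IL-6. Cd80, a ligand of CD28 and CTLA-4, was at 0.11 in PlGFCM and -0.32 with IL-6, Lgals9, which encodes galectin-9, at -0.14 and -0.21, and Tnfsf14, a further ligand of HVEM, at -0.17 and 0.11. Of 22 other inhibitory receptors and ligands measured none passed over all genes. A positive difference was found for 16 in PlGFCM, with a median of 0.06, and for 8 with IL-6. Of all 22180 genes, 10291 were positive in PlGFCM and 10406 with IL-6. Entpd1, the ectonucleotidase CD39, had log2 levels of 7.09 and 7.27 with ConCM, 7.68 and 7.73 with PlGFCM, and 7.03 and 7.22 with IL6_ConCM. Only the PlGFCM arrays of Entpd1 stood higher, by 0.53 (adjusted p = 0.0778) against ConCM and by 0.58 (adjusted p = 0.199) against IL6_ConCM, short of the threshold. Vsir, which encodes the inhibitory protein VISTA, was at 0.35 (adjusted p = 0.0806) and Procr, the protein C receptor, at 0.35 (adjusted p = 0.230) in PlGFCM, and with IL-6 they were at 0.25 and -0.02. Under the filter at the median of all probe sets, Entpd1 (adjusted p = 0.0411) and Vsir (adjusted p = 0.0453) passed in PlGFCM. None of 17 costimulatory receptors and ligands passed, with Cd226, the activating competitor of TIGIT, at -0.29 and -0.25, Tnfrsf4 at 0.09 and -0.06 and Tnfrsf9 at 0.05 and -0.15 against ConCM.

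Among 22 genes of inhibitory signalling and feedback, Lax1 rose in PlGFCM and none fell, beside 0.352% and 0.0812% of all genes. Lax1 encodes a membrane adaptor that dampens antigen receptor signalling. It had log2 levels of 8.43 and 8.33 with ConCM, 8.83 and 8.85 with PlGFCM, and 8.42 and 8.41 with IL6_ConCM. The PlGFCM arrays were higher than the other 4, by 0.46 ± 0.08 (SE) against ConCM (adjusted p = 0.0371), and 0.03 was the difference with IL-6. The call was lost when any 1 of the ConCM or PlGFCM arrays was left out, after subtraction of array medians (adjusted p = 0.0619), without an intensity trend and with the replicate block. Dgka, a diacylglycerol kinase that limits T cell signalling, was at 0.19 and 0.18, and Trat1, a T cell receptor associated adaptor, at -0.69 (adjusted p = 0.204) and -0.61 (adjusted p = 0.498), which did not pass. In PlGFCM, Trat1 passed without ConCM replicate 1 (adjusted p = 0.0341) and was at -0.38 without ConCM replicate 2.

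Of 20 transcription factors measured that are known to act on inhibitory receptor genes, Maf rose and Eomes and Nr4a3 fell in PlGFCM. With IL-6, Eomes and Nr4a3 fell. Of all genes, 0.433% changed in PlGFCM and 0.113% with IL-6. The factors were listed with earlier results of these data known, so their number is a description. Maf, which takes part in a shared programme of inhibitory receptors and IL-10, had log2 levels of 7.31 and 7.62 with ConCM, 8.41 and 8.23 with PlGFCM, and 7.48 and 7.88 with IL6_ConCM. It was higher in PlGFCM by 0.85 (adjusted p = 0.0287) and differed by 0.22 with IL-6 (adjusted p = 0.981). Nr4a3, a nuclear receptor induced by T cell receptor signalling, had 10.31 and 10.34 with ConCM, 9.81 and 9.76 with PlGFCM, and 9.57 and 9.27 with IL6_ConCM. It fell by 0.55 in PlGFCM (adjusted p = 0.0286) and by 0.91 with IL-6 (adjusted p = 0.00533). Eomes, a T-box factor of cytotoxic cells, had 7.99 and 7.50 with ConCM, 6.48 and 6.32 with PlGFCM, and 6.51 and 6.09 with IL6_ConCM. It fell by 1.34 in PlGFCM (adjusted p = 0.00908) and fell by 1.44 with IL-6 (adjusted p = 0.00804). The calls of Maf and Nr4a3 in PlGFCM were lost when any 1 of the ConCM or PlGFCM arrays was left out, and that of Eomes without either PlGFCM array. The replicate block also ended the call of Maf (adjusted p = 0.0545). Without an intensity trend none of these 5 calls held. With IL-6, Nr4a3 did not pass without ConCM replicate 2 nor Eomes without IL6_ConCM replicate 2. The median of the 20 factors was 0.12 in PlGFCM and 0.00 with IL-6, beside -0.01 for all genes tested in each.

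**Figure D4:**
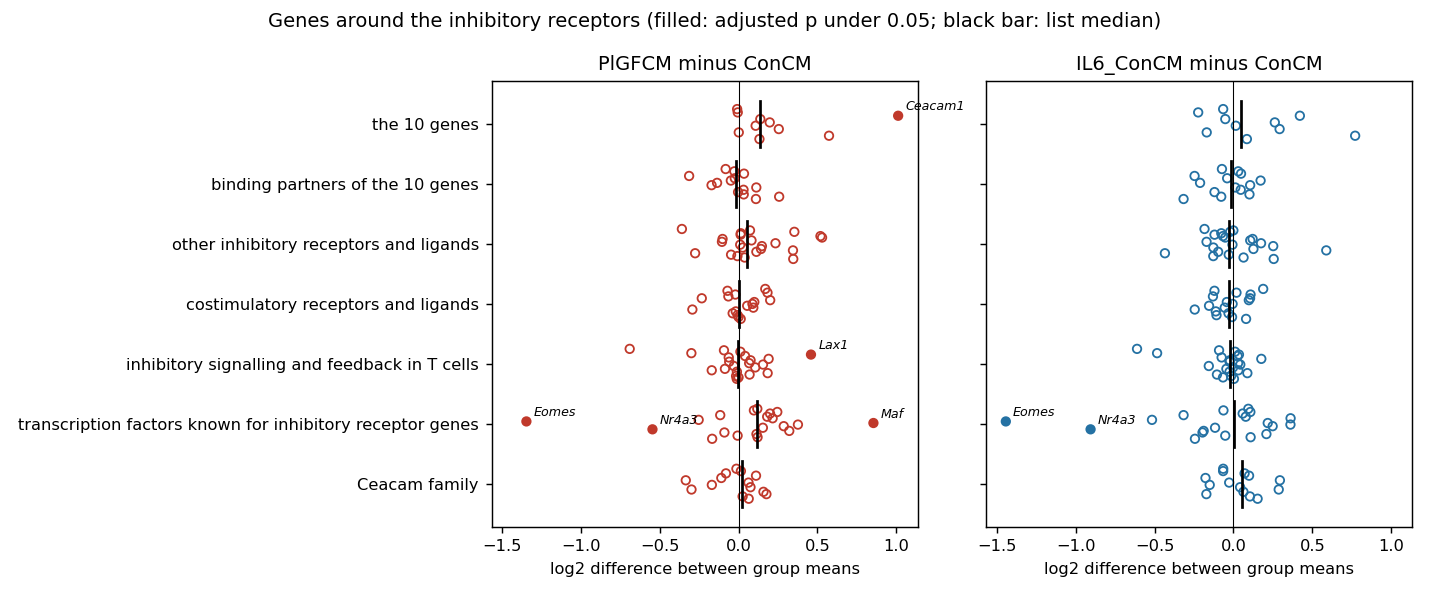
Log2 differences from ConCM (x axis) of PlGFCM (left) and IL6_ConCM (right) for the 10 genes and the lists of related genes (y axis); each circle is a gene, filled where its adjusted p was under 0.05, and black bars are list medians. Ceacam1, Lax1 and Maf are the filled circles above 0 on the left, and Eomes and Nr4a3 are filled below 0 in both panels.

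The stretches around the start sites were searched for 3 short motifs on both strands, as a description of sequence and not of binding. RefSeq windows of 300 bases around the start on build GRCm38.p6 were at hand for 9 of the 10 genes, in 10 windows, and Lag3 was not matched. The STAT motif TTCNNNGAA occurred in 8.3% of all 32851 windows and in 1 of the 10, that of Cd160. The AP-1 motif TGANTCA occurred in 7.81% of all windows and in 1 of the 10, that of Havcr2, and the letters GAAA, any 2 bases and GAAA again, an element of interferon regulatory factors, in 3.44% and in none of the 10. The letters of these motifs are thus not in the windows of Ceacam1 or Tigit.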

How the data were processed

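RNA of 6 samples of stimulated mouse CD4+ T cells was measured on 6 arrays, and samples were grouped by their titles. The deposited table holds log2 levels per probe set, which the submitters' processing notes trace to the authors' use of Transcriptome Analysis Console. Not given in the sources used here are its version, the background correction, the normalization and the build. That they are on a log2 scale follows from their range, and nothing further was normalized. Arrays give no read depth, so their number limits the precision.

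The platform annotation gave 1 symbol for 23521 of 41345 probe sets, several for 1814, which were left out, and none for 16010. The brightest probe set per gene was kept, 22180 in all, without any filter on low levels. Differences were tested with limma 3.58.1 in R 4.3.3 (lmFit and eBayes with an intensity trend, all 6 arrays, 3 residual degrees of freedom, median prior of 8.14), with Benjamini-Hochberg adjustment over all genes. The fit was also run on simulated data with independent normal noise. That run checks the code alone and is no support for the calls made here. Nothing in the labels ties replicates to separate animals or cultures. The p-values therefore measure the spread between these samples alone, and that spread may be technical. With 2 arrays against 2, the smallest two-sided p of an exact permutation test is 0.333.

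Members, gene lists and tests were chosen with earlier results of these data known. Named were the 10 members, of each other list the genes that passed, filled to 3 by smallest p, the 5 genes nearest Ceacam1 in Euclidean distance, and Xist and Cd4 as checks. A further check gene of this rule, the Y-linked Kdm5d, was at 7.07 on PlGFCM replicate 2 and at 7.42 to 7.77 elsewhere. Ceacam2 and Tnfrsf14 fall outside this rule and were named, after their values were seen, for their relation to a member. Of the erythroid cell and platelet markers 3 of 6 were measured and none passed, Pf4 at -0.14, Ppbp at 0.21 and Itga2b at -0.03 in PlGFCM against ConCM. Siglech, Xcr1 and Itgax of the dendritic list were at -0.23, -0.20 and -0.08, with Flt3 and Zbtb46 at 0.29 and 0.07, and Prf1, Klre1 and Ncr1 of the NK and CD8 list at 0.34, 0.28 and -0.20. The alternatives were 2 other normalizations, 2 filters on low levels, 2 treatments of probe sets, 2 other priors, the compared arrays alone, array weights, a replicate block and each array left out.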

Additional observations from a re-analysis of the deposited data

How the results depend on the processing

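Each result was recomputed under 17 alternatives, 6 of which leave out an array. Where a group is left with 1 array, that array is assumed to vary like the others. Of 507 recomputed differences of the 10 genes, 478 kept their direction and their side of the threshold. Several settings leave the difference itself as it was, and most differences lay far from the threshold. These numbers therefore do not measure stability. Cd160 has no value under the filter at the median of all probe sets, which 9 of the 10 genes passed. The number of the 10 genes that changed in PlGFCM against ConCM, 1 as reported, was 0 without an intensity trend and 0 with the replicate block, and 0 to 1 when an array was left out. In the other comparisons it was 0 throughout by limma. The number of all genes that changed in PlGFCM against ConCM, 96 as reported, was 174 under the filter at the median, 6 without an intensity trend, 62 with the replicate block and 12 to 107 with an array left out. For IL6_ConCM against ConCM, 25 became 53 under either filter, 47 with array weights, 12 with the compared arrays alone, 1 without an intensity trend, 16 with the replicate block and 2 to 41 with an array left out. For PlGFCM against IL6_ConCM, 7 became 0 without an intensity trend and 0 to 5 with an array left out. The filters test fewer genes, and the other causes were not tested.

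The replicate numbers were not shown to pair the samples. Across genes, deviations from the group means correlated at -0.0386 between ConCM and PlGFCM, 0.111 between ConCM and IL6_ConCM and 0.0329 between PlGFCM and IL6_ConCM, which leaves pairing of ConCM with IL6_ConCM undecided. In PlGFCM against ConCM the replicate block ended the calls of Ceacam1 (adjusted p = 0.0822), Lax1 (0.0565) and Maf (0.0545).

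Differences that did not pass changed sign as follows. Pdcd1 in PlGFCM against ConCM was -0.043 after quantile normalization. With an array left out, differences in PlGFCM against ConCM ranged from -0.23 to 0.23 for Pdcd1, -0.29 to 0.51 for Havcr2, -0.26 to 0.54 for Cd160, -0.072 to 0.061 for Cd274 and -0.35 to 0.33 for Pdcd1lg2. With IL-6 against ConCM they ranged from -0.40 to 0.058 for Pdcd1, -0.39 to 0.42 for Havcr2, -0.45 to 0.35 for Cd160 and -0.40 to 0.27 for Pdcd1lg2. In PlGFCM against IL6_ConCM they ranged from -0.22 to 0.14 for Lag3, -0.086 to 0.27 for Havcr2, -0.14 to 0.0091 for Btla and -0.16 to 0.27 for Pdcd1lg2.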
